A study of Mus musculus with 9 samples.

Results

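One week of intermittent fasting was compared with ad libitum feeding in the substantia nigra of sham-operated wild type C57BL/6 mice. This midbrain region holds the dopaminergic neurons that die in Parkinson's disease. The comparison takes all libraries that carry either label, 3 from 1 week of fasting and 3 from ad libitum feeding, out of 9 in the series, and all 20535 of the 20591 genes in the table that passed a filter on low counts. Per the labels' protocols the mice were 12 weeks old when allocated. Mice of the 1 week group had gone through 3 fasts of 24 hours, each begun 2 hours before lights off, while ad libitum mice were moved between cages at the same times. The other 3 libraries came from mice fasted for 1 day, 1 fast of 24 hours, and entered the fit to help estimate the spread. All groups share the sham operation, so no unoperated tissue stands beside them. The labels do not say whether each library is a separate animal, so p-values measure the spread between libraries, part of which may be technical. The sources used here do not state how long after the last fast the tissue was taken.

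As background, fasting lowers insulin and raises circulating glucocorticoids in rodents. Glucocorticoids cross into the brain and bind the glucocorticoid receptor Nr3c1 and the mineralocorticoid receptor Nr3c2, transcription factors that recognise a palindromic DNA element and induce genes such as Sgk1, Fkbp5, Tsc22d3 and Per1. Falling insulin leaves FoxO transcription factors in the nucleus, and lack of food moves tissues from glucose towards fatty acids and ketone bodies.

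After 1 week more genes were higher than lower. The higher ones included the kinase Sgk1, the lipid droplet gene Plin4, the cell cycle inhibitor Cdkn1a and the glucose transporter Slc2a1, and the lower ones the oligodendrocyte genes Trf and Ugt8a. By edgeR's quasi-likelihood test with Benjamini-Hochberg adjustment, 63 genes changed, 0.307% of those tested. Of these 52 rose, 0.253% of genes, and 11 fell, 0.0536%. Among the 52, 40 rose at least 2-fold and 18 at least 4-fold, with a median log2 fold change of 1.44. Among the 11, 8 fell at least 2-fold, with a median of -1.11. The median over all genes tested was -0.00. In each of the 52 all 3 fasted libraries lay above all 3 ad libitum libraries, and in each of the 11 all 3 lay below. Over all genes that pattern held for 10.9% and 11.5%. The 63 were called on these same libraries, so the pattern among them largely follows from the selection. Unadjusted p-values lay below 0.05 for 2305 genes, where chance gives 1027. Of the calls, 43 risen and 10 fallen genes carry gene names and the other 9 and 1 are predicted gene models, which were counted only.

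The number of calls depended on the libraries and the tool. DESeq2 called 464 genes, 296 higher and 168 lower, and limma voom with quality weights 296, 182 higher and 114 lower. With edgeR, without ad libitum replicates 1, 2 and 3 it was 8, 11 and 9, and without 1 week replicates 1, 2 and 3 it was 96, 22 and 17. Without 1 day replicates 1, 2 and 3 it was 30, 121 and 87. The ad libitum and 1 week libraries alone gave 155. Every one of the 63 fold changes kept its sign in each of these fits, and Sgk1, Arl4d, Net1, Plekhf1, Arrdc2 and Gabrr2 kept their calls whichever library was left out.

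**Figure D1:**
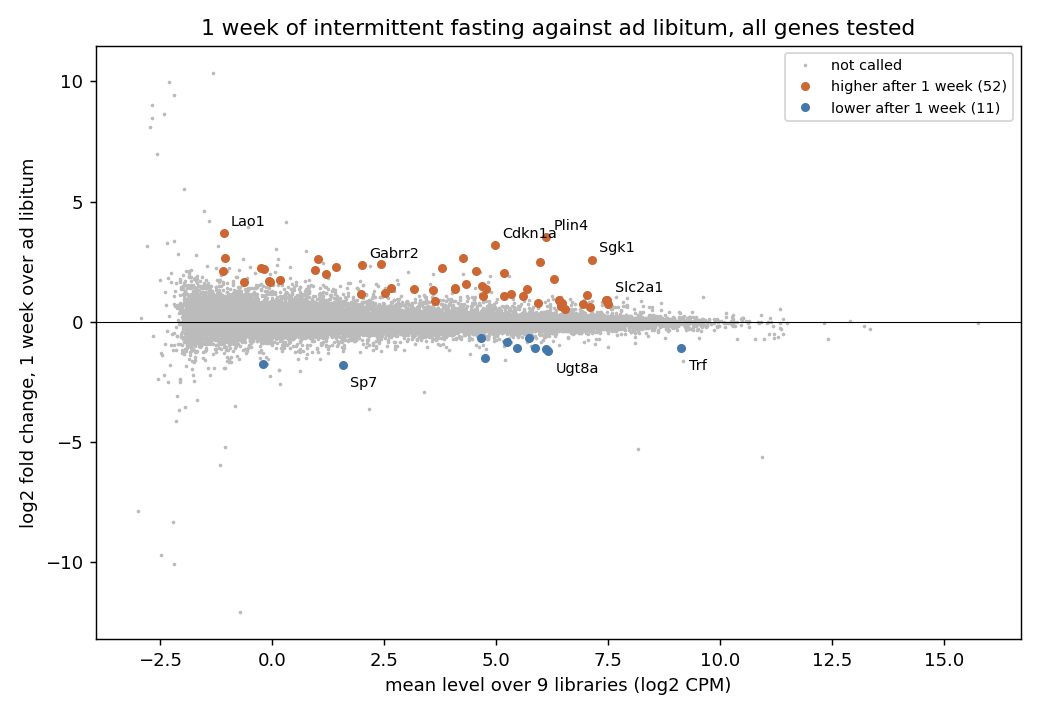
Log2 fold change of 1 week over ad libitum against mean level (log2 CPM over 9 libraries) for the 20535 genes tested, one point per gene. The 52 genes higher (orange) and 11 lower (blue) by edgeR lie at low and high levels alike, with the named genes Lao1 and Trf among them, and the grey points did not pass, some of them with larger fold changes.

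Sgk1 and Map3k6 are the named risen genes whose promoters hold the palindromic glucocorticoid receptor consensus, so these sequences are shown. They are RefSeq windows of GRCm38.p6, the 250 bases before a transcription start, 5′ to 3′ on the plus strand. Sgk1 lies at chr10:21993640-21993889 and Map3k6 at chr4:133240568-133240817. Capitals mark matches to GNACANNNTGTNC and to the 6-base element AGAACA or its reverse complement. In Sgk1 matches to the 6-base element overlap the consensus match, and a further one lies apart from it near the start of the window.
Sgk1: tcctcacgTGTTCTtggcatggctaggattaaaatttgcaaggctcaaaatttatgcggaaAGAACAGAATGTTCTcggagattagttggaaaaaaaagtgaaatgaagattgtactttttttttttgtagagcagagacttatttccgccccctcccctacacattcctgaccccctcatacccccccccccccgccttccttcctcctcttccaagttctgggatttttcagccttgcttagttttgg
Map3k6: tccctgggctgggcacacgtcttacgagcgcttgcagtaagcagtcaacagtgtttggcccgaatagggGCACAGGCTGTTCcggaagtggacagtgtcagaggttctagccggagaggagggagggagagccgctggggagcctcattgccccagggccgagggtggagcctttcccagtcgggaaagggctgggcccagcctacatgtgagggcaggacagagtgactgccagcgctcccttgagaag
The Sgk1 match, GAACAGAATGTTC, spans positions -188 to -176 from the start of one of 6 Sgk1 windows, and the Map3k6 match, GCACAGGCTGTTC, positions -181 to -169. Windows of 250 bases before to 50 after a start were at hand for 37 of the 43 named risen genes, 6 of the 10 named fallen genes and 13162 of all genes tested. On either strand the consensus occurred in 2 of the 37 (5.41%) and in 1 of the 6 (Eml1, 16.7%). Of all genes with a window it occurred in 53 (0.403%). AGAACA occurred in 5 of the 37 (13.5%) and in 16% of all. The FoxO element GTAAACA occurred in 2 of the 37, Adipor2 and Klf9 (5.41%), against 3.19% of all, the E-box CACGTG in 3 (8.11%) against 10.8%, and the CRE TGACGTCA in Arl4d and Errfi1 (5.41%) against 3.24%. In the 6 fallen genes the 6-base element occurred in Eml1 and the E-box and CRE in Creb5 (16.7% each), and the FoxO element in 0. A match describes letters in these windows and does not show binding.

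Among the named risen genes 12 were grouped under signalling, once they had been called. Sgk1 (ENSMUSG00000019970), a kinase that regulates ion channels and transporters and phosphorylates FoxO factors, was at 51.9, 40.6 and 49.9 CPM, read counts scaled to library size, in ad libitum replicates 1, 2 and 3. In 1 week replicates 1, 2 and 3 it was at 287, 255 and 311 CPM. The groups did not overlap and the lowest fasted library was far above the highest fed one. The rise was 5.99-fold (edgeR, log2 fold change 2.58, SE 0.20, adjusted p = 0.00154). Map3k6, a stress-responsive kinase that acts upstream of MAP kinases, was low, at 2.01, 1.79 and 2.77 CPM against 8.26, 13.0 and 13.4 CPM (log2 fold change 2.39, SE 0.34, adjusted p = 0.0259).

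Ddit4 (ENSMUSG00000020108), an inhibitor of the growth kinase complex mTORC1, was at 37.4, 42.3 and 34.7 CPM in fed and 100, 161 and 130 CPM in fasted libraries, a 3.42-fold rise (SE 0.19 on the log2 scale, edgeR adjusted p = 0.00663). Errfi1, which inhibits the epidermal growth factor receptor, rose 2.10-fold from 31.8 ± 0.993 to 66.8 ± 13.9 CPM (SD, n = 3, adjusted p = 0.0321 by edgeR). Arrdc2, an arrestin-domain gene of the family of Txnip, was at 15.4, 15.7 and 16.7 CPM against 52.7, 68.6 and 73.9 CPM (log2 fold change 2.03, SE 0.19, adjusted p = 0.00277). Its fed libraries were close together, and its fasted ones spread more widely above them.

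Regulators of small GTPases rose as well. Arl4d (ENSMUSG00000034936), a small GTPase of the ARF-like family, was at 10.1, 9.78 and 8.19 CPM in fed libraries and at 35.3, 44.7 and 41.0 CPM in fasted ones, 4.31-fold higher (edgeR, log2 fold change 2.11, SE 0.17, adjusted p = 0.00154). Net1, an exchange factor that activates RhoA, was at 14.3, 13.1 and 15.3 CPM against 34.0, 42.5 and 42.8 CPM (log2 fold change 1.48, SE 0.13, adjusted p = 0.00255). For both genes replicate 1 was the lowest of the fasted libraries. Rhou, an atypical small GTPase, rose 1.85-fold from 57.8 ± 6.65 to 107 ± 13.1 CPM, and Arhgef37, which carries an exchange factor domain, rose 2.49-fold from 7.05 ± 1.19 to 17.6 ± 3.55 CPM. Plekhf1, a phosphoinositide-binding protein of endosomes and lysosomes, was at 8.50, 9.75 and 10.4 CPM against 22.6, 23.8 and 28.6 CPM (log2 fold change 1.38, SE 0.13, adjusted p = 0.00277). Itpk1, an inositol phosphate kinase, rose 1.59-fold and Bcl2l1, whose main product opposes apoptosis, 1.66-fold, to 159 ± 13.9 CPM. Of these 12 calls 5, 6 and 5 held without ad libitum replicates 1, 2 and 3 and 11, 6 and 6 without 1 week replicates 1, 2 and 3, with edgeR adjusted p up to 0.249. Without 1 day replicates 1, 2 and 3, 8, 12 and 11 held.

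**Figure D2:**
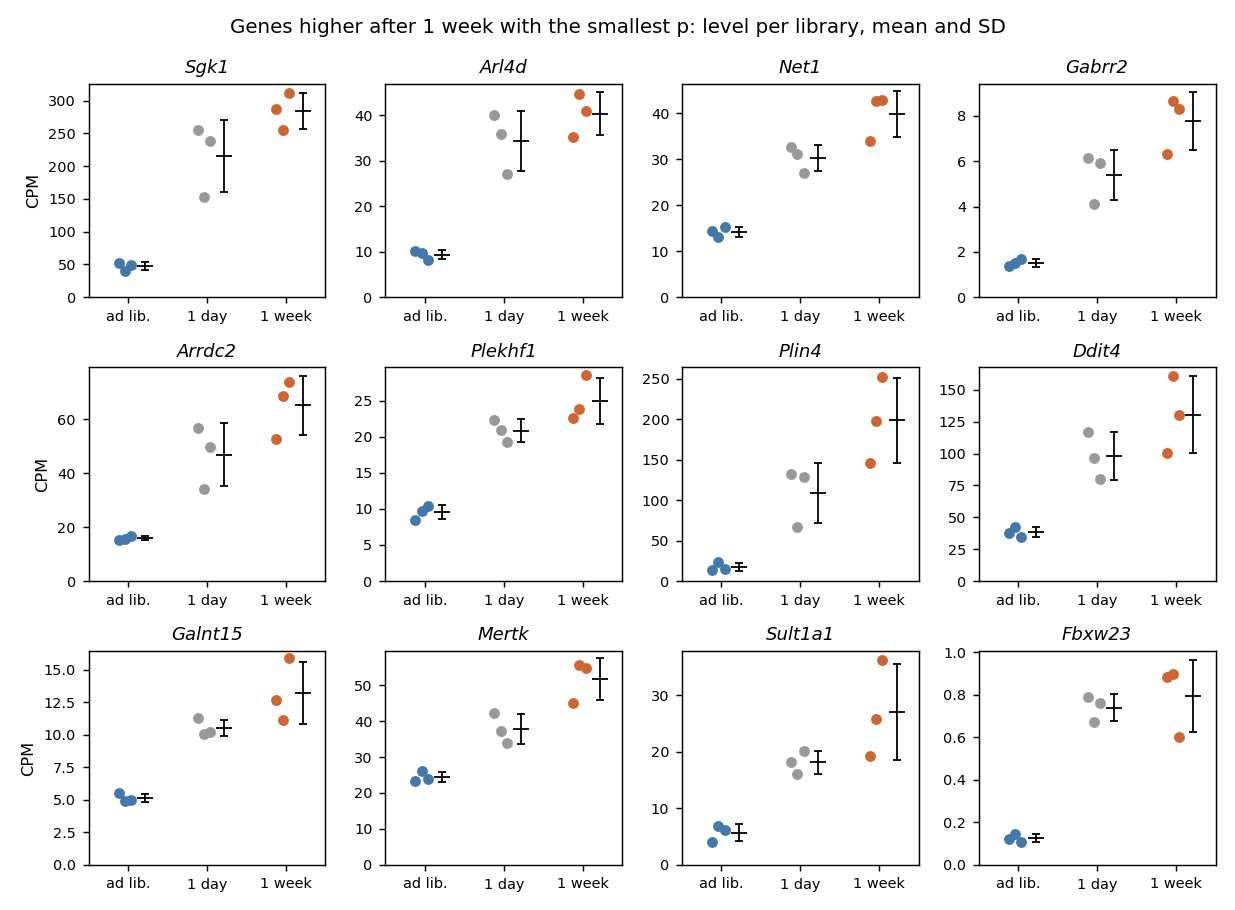
Level in CPM of the 12 named risen genes with the smallest p in each ad libitum (blue), 1 day (grey) and 1 week (orange) library, replicates 1 to 3 from left to right, with the group mean and SD beside them and each axis starting at 0. In every panel the 3 orange points lie above the 3 blue points, from the highest in level, Sgk1, to the lowest, Fbxw23.

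Transcription factors and cell cycle genes accounted for 9 named risen genes. Cdkn1a (ENSMUSG00000023067), the cell cycle inhibitor p21 and a target of both glucocorticoids and FoxO factors, was at 8.62, 11.2 and 9.51 CPM in fed libraries and at 48.5, 110 and 108 CPM in fasted ones. The rise was 9.09-fold (log2 fold change 3.18, SE 0.41, edgeR adjusted p = 0.0242). Replicate 1 was below the other two fasted libraries. In Zbtb16, a zinc finger repressor, replicate 1 was again the lowest fasted library, at 23.2, 30.4 and 31.9 CPM against 84.6, 193 and 198 CPM (log2 fold change 2.48, SE 0.36, adjusted p = 0.0329). Hif3a (ENSMUSG00000004328), a hypoxia-inducible factor subunit that can restrain the others, was at 5.497, 7.67 and 9.01 CPM against 40.4, 41.7 and 57.1 CPM, 6.27-fold higher (SE 0.30 on the log2 scale, adjusted p = 0.00957).

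Klf15, Klf13 and Klf9, zinc finger factors of the Krüppel-like family, all rose. Klf15, which acts in the fasting metabolism of liver and muscle, was at 23.0, 28.2 and 27.0 CPM against 50.9, 65.2 and 57.8 CPM (edgeR, log2 fold change 1.15, SE 0.14, adjusted p = 0.00957). Klf13 rose 1.90-fold, from 127 ± 4.23 to 240 ± 38.7 CPM (adjusted p = 0.0321). Klf9, a corticosteroid and thyroid hormone target in neurons, rose 1.55-fold, from 110 ± 5.01 to 171 ± 18.4 CPM (adjusted p = 0.0493). Nfkbia, the inhibitor of NF-kappaB, was at 16.9, 15.8 and 15.3 CPM against 38.0, 40.3 and 46.1 CPM (2.59-fold, adjusted p = 0.0238). Tob2, which restrains proliferation, rose 1.71-fold to 75.8 ± 8.62 CPM, and Dmrta1, a low-level DM-domain gene, was at 0.436, 0.434 and 0.412 CPM against 1.42, 1.53 and 2.98 CPM (log2 fold change 2.20, SE 0.33, adjusted p = 0.0321). Without ad libitum replicates 1, 2 and 3 none of the 9 passed (edgeR adjusted p up to 0.243). Without 1 week replicates 1, 2 and 3, 9, 2 and 2 passed, Hif3a and Klf15 being the 2 in either case, and without 1 day replicates 1, 2 and 3, 5, 8 and 8 passed.

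Genes of lipid and fuel use and of transport made up 11 of the named risen genes. Plin4 (ENSMUSG00000002831), a coat protein of lipid droplets, was at 13.5, 23.0 and 15.2 CPM in fed libraries and at 146, 198 and 252 CPM in fasted ones, 11.6-fold higher (edgeR, log2 fold change 3.53, SE 0.34, adjusted p = 0.00539). No fasted library came near the fed range. Pnpla2, the lipase of the first step of triglyceride breakdown, was at 32.0, 34.9 and 30.4 CPM against 55.7, 107 and 84.2 CPM (2.54-fold, SE 0.21 on the log2 scale, adjusted p = 0.0329). Pdk4, which blocks pyruvate dehydrogenase and so limits glucose oxidation, was at 9.01, 10.2 and 9.99 CPM against 18.4, 28.9 and 28.5 CPM (2.59-fold, SE 0.19, adjusted p = 0.0229). Adipor2 (ENSMUSG00000030168), an adiponectin receptor, was at 73.9, 78.4 and 95.6 CPM against 161, 185 and 186 CPM (2.15-fold, SE 0.13, adjusted p = 0.00957).

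Transporters of glucose and amino acids were among them. Slc2a1 (ENSMUSG00000028645), GLUT1 of the blood-brain barrier and of astrocytes, was at 117, 135 and 138 CPM in fed and 213, 277 and 247 CPM in fasted libraries, 1.89-fold higher (edgeR, log2 fold change 0.92, SE 0.15, adjusted p = 0.0380). Slc2a4, the insulin-responsive GLUT4, was much lower in CPM, at 3.17, 4.02 and 3.94 against 8.56, 8.10 and 9.20 CPM, 2.32-fold higher (SE 0.17 on the log2 scale, adjusted p = 0.0232). Slc7a5, which carries large neutral amino acids across the blood-brain barrier, had the smallest change among the 52, 1.44-fold, at 75.7, 76.0 and 76.8 CPM against 117, 110 and 103 CPM (SE 0.09, adjusted p = 0.0381). Sult1a1, a sulfotransferase of phenolic compounds, was at 4.07, 6.91 and 6.15 CPM against 19.2, 25.8 and 36.2 CPM (4.74-fold, SE 0.26, adjusted p = 0.00859). Galnt15, an enzyme of O-glycosylation, rose 2.57-fold and Phyhd1, a dioxygenase-domain gene, 2.07-fold. Lao1, an amino acid oxidase, had the lowest fed levels of the named genes, at 0.0484, 0.116 and 0.0867 CPM against 0.631, 1.64 and 1.06 CPM (adjusted p = 0.0170), so its fold change rests on a few reads per fed library.

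Slc2a1 was the 1 of 13 endothelial markers that rose, where 0.253% of all genes rose. Among the others, the tight junction gene Cldn5 (log2 fold change -0.58, adjusted p = 0.270) and the growth factor receptor Kdr (-0.64, adjusted p = 0.263) had negative values and Mfsd2a, the lipid transporter of the barrier, a positive one (0.88, adjusted p = 0.215), and the list's median was -0.05. Summed over the 13 markers, fed libraries had 525 to 642 CPM and fasted ones 681 to 713 CPM. Slc2a1 made up 117, 135 and 138 CPM of the sums in fed replicates 1, 2 and 3. It made up 213, 277 and 247 CPM in fasted replicates 1, 2 and 3. The sum is therefore not a gauge of endothelial content apart from Slc2a1. The part of endothelial content in the Slc2a1 result was not tested. Of the 11 calls among fuel and transport genes 1, 3 and 1 held without ad libitum replicates 1, 2 and 3, and 10, 5 and 3 without 1 week replicates 1, 2 and 3 (edgeR adjusted p up to 0.237). Without 1 day replicates 1, 2 and 3, 7, 11 and 11 held. Plin4 missed the threshold without ad libitum replicate 3 alone, at an adjusted p of 0.0513.

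The remaining 11 named risen genes encode surface, cytoskeletal and other proteins. Gabrr2 (ENSMUSG00000023267), a subunit of GABA-gated chloride channels, was at 1.36, 1.504 and 1.69 CPM in fed and 6.33, 8.67 and 8.32 CPM in fasted libraries (edgeR, log2 fold change 2.35, SE 0.21, adjusted p = 0.00255). Mertk (ENSMUSG00000014361), a receptor kinase with which astrocytes and microglia engulf debris and synapses, was at 23.5, 26.1 and 23.8 CPM against 45.1, 55.7 and 54.7 CPM, 2.12-fold higher (SE 0.12 on the log2 scale, adjusted p = 0.00830). Itgad, an integrin subunit of leukocytes, was low, at 0.702, 0.897 and 0.693 CPM against 3.26, 4.20 and 6.42 CPM (log2 fold change 2.60, SE 0.38, adjusted p = 0.0281). It was on a list of 12 leukocyte markers of which 4 were measured. The other 3 did not pass, with log2 fold changes from -0.68 to 0.41, and 0.253% of all genes rose.

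Gjb6, the astrocyte gap junction protein connexin 30, was at 53.9, 74.4 and 66.9 CPM against 112, 115 and 108 CPM, 1.72-fold higher (edgeR adjusted p = 0.0364). Gjb6 was the 1 of 13 astrocyte markers that rose, where 0.253% of all genes rose. The median of the list was 0.10. Its summed level, Gjb6 included, was 5853 to 6051 CPM in fed and 6177 to 6696 CPM in fasted libraries. Whether astrocyte content has a part in the Gjb6 result was not tested. Gfap, the astrocyte filament gene that rises in reactive cells, overlapped between groups, at 320, 415 and 426 CPM against 574, 397 and 653 CPM (log2 fold change 0.49, adjusted p = 0.474).

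Htra1, a secreted protease, rose 1.65-fold from 136 ± 12.5 to 225 ± 27.5 CPM and Tppp3, which promotes tubulin polymerisation, 1.58-fold from 66.7 ± 5.89 to 105 ± 1.48 CPM. Fam83d, a mitotic spindle gene, was at 0.775, 0.839 and 1.47 CPM against 4.76, 4.80 and 5.71 CPM (edgeR, log2 fold change 2.29, SE 0.28, adjusted p = 0.00970). Tekt4, a tektin of cilia and flagella, rose 3.99-fold to 3.73 ± 1.15 CPM, Kirrel2, an adhesion molecule, 2.65-fold to 9.03 ± 2.45 CPM and Dclre1b, a telomere nuclease, 1.81-fold to 16.1 ± 1.05 CPM. Fbxw23, an F-box gene, was at 0.121, 0.145 and 0.108 CPM against 0.883, 0.900 and 0.601 CPM (adjusted p = 0.00957); it belongs to a family of close mouse copies, so the split of reads among them is uncertain. Of the 11 calls 1, 1 and 2 held without ad libitum replicates 1, 2 and 3, 9, 4 and 4 without 1 week replicates 1, 2 and 3, and 6, 11 and 11 without 1 day replicates 1, 2 and 3 (adjusted p up to 0.227).

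The fallen genes reported here are 9, and they include a netrin receptor, a chemokine and genes of oligodendrocytes. Unc5b (ENSMUSG00000020099), a receptor for the guidance cue netrin, was nearly the same in the fed libraries, at 113, 113 and 114 CPM, and at 61.2, 41.8 and 49.6 CPM in the fasted ones (edgeR, log2 fold change -1.15, SE 0.14, adjusted p = 0.00957). Cxcl12, a chemokine that guides migrating cells, was at 73.9, 84.7 and 72.0 CPM against 53.1, 45.2 and 47.2 CPM (-0.66, SE 0.11, adjusted p = 0.0381). Of 24 guidance and chemokine genes these 2 were the ones that fell and 0 rose, where 0.0536% of all genes fell and 0.253% rose. The other 22 did not pass. The list's log2 fold changes ran from -1.15 to 0.81 with a median of -0.04, and the netrin gene Ntn1 was at -0.09 and the Cxcl12 receptor Cxcr4 at -0.11.

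Trf (ENSMUSG00000032554), transferrin, which oligodendrocytes make in the brain, was at 961, 845 and 1031 CPM against 517, 320 and 477 CPM (edgeR, log2 fold change -1.11, SE 0.17, adjusted p = 0.0322). All 3 fasted libraries were well below the fed range, replicate 2 furthest. Of 14 genes of iron handling Trf was the 1 that fell, where 0.0536% of all genes fell. Slc40a1, the iron exporter, had a log2 fold change of -0.52 (adjusted p = 0.318) and Tfrc, the transferrin receptor, 0.08 (adjusted p = 0.925). Ugt8a (ENSMUSG00000032854), which makes the myelin lipid galactocerebroside, was at 116, 105 and 142 CPM against 61.1, 44.6 and 48.2 CPM (-1.24, SE 0.20, adjusted p = 0.0381). Of 12 genes of myelin galactolipid synthesis and transport Ugt8a was the 1 that fell, and 5 lay lower in every fasted than in every fed library (11.5% of all genes), including Fa2h, which hydroxylates the fatty acid of galactolipids (-0.54, adjusted p = 0.333), and Gal3st1, which makes sulfatide (-0.62, adjusted p = 0.462).

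Sp7, a zinc finger factor best known from bone, was at 8.02, 4.89 and 4.25 CPM against 1.60, 1.20 and 2.08 CPM (edgeR, log2 fold change -1.81, SE 0.28, adjusted p = 0.0329). Sox2ot, a long noncoding RNA in whose intron Sox2 lies, was at 66.7, 63.6 and 78.2 CPM against 37.7, 25.8 and 32.9 CPM (-1.11, SE 0.17, adjusted p = 0.0321), and reads of the overlapping genes may be shared. Eml1, a microtubule-binding protein, was at 91.6, 87.4 and 96.2 CPM against 42.7, 50.6 and 36.3 CPM (-1.09, SE 0.15, adjusted p = 0.0189). S100a16, a calcium-binding protein, was at 53.1, 59.5 and 56.5 CPM against 37.4, 28.4 and 29.1 CPM (-0.83, SE 0.13, adjusted p = 0.0322). Creb5, a transcription factor of the CRE-binding family, was at 33.1, 32.8 and 36.6 CPM against 23.8, 19.3 and 21.0 CPM (-0.68, SE 0.12, adjusted p = 0.0493). None of these genes had overlapping groups. Of the 9, none passed without ad libitum replicate 1, 2 or 3 or 1 week replicate 3, and 8 and 3 passed without 1 week replicates 1 and 2 (adjusted p up to 0.249). Without 1 day replicates 1, 2 and 3, 2, 9 and 8 passed.

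**Figure D3:**
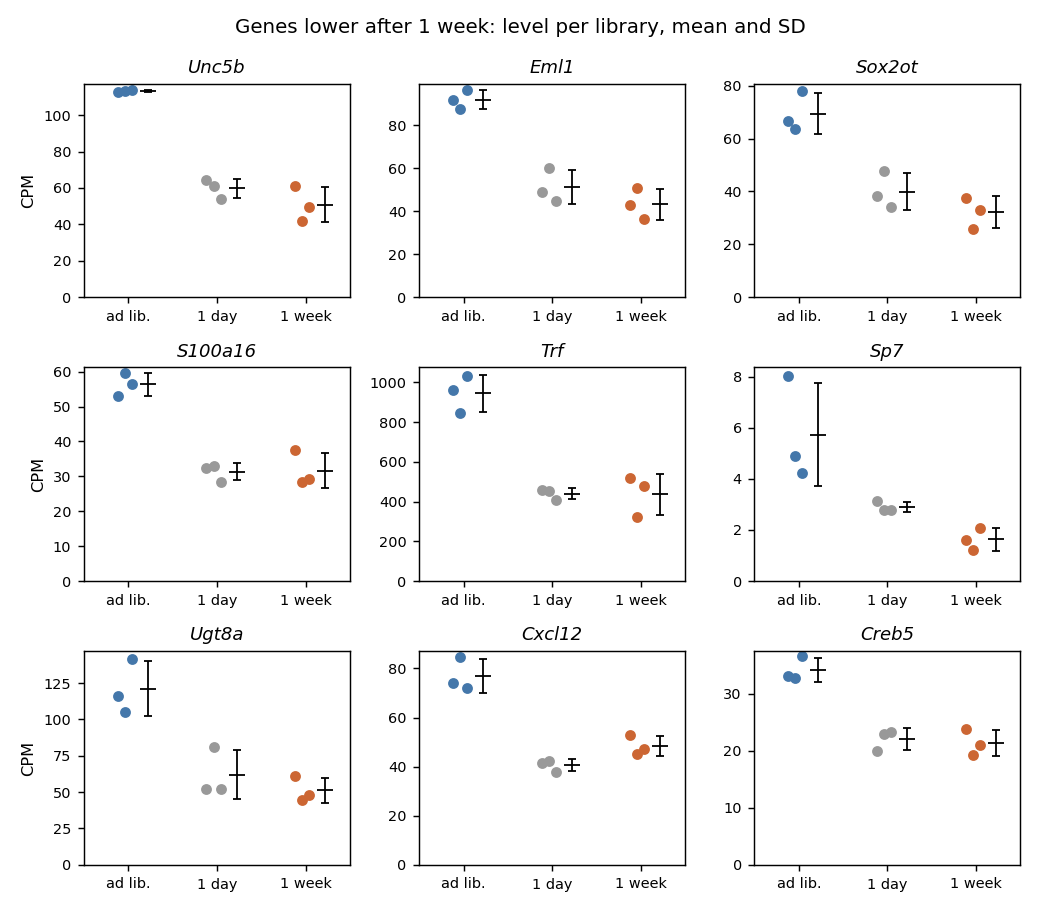
Level in CPM of 9 named fallen genes in each ad libitum (blue), 1 day (grey) and 1 week (orange) library, replicates 1 to 3 from left to right, with the group mean and SD beside them and each axis starting at 0. The orange points lie below the blue points in every panel, with Unc5b nearly level across the fed libraries at 113 to 114 CPM.

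Trf and Ugt8a were the 2 of 18 oligodendrocyte markers that fell, where 0.0536% of all genes fell. Log2 fold changes were positive in 5 of the 18, up to 0.36. In all, 8 of the 18 lay below every fed library in all 3 fasted ones, as 11.5% of all genes did, with a median log2 fold change of -0.40. Mag, a myelin adhesion protein, was at 416, 434 and 480 CPM against 311, 283 and 290 CPM and missed the threshold (-0.59, SE 0.11, edgeR adjusted p = 0.0593). Opalin, a membrane protein of myelinating cells, was at 37.8, 35.4 and 41.4 CPM against 23.0, 10.4 and 11.4 CPM (-1.35, SE 0.28, adjusted p = 0.103). The gap junction gene Gjb1 had a log2 fold change of -0.68 (adjusted p = 0.122). Mbp, which encodes a major myelin protein, overlapped between groups. It was at 5423 ± 745 CPM in fed and 5216 ± 588 CPM in fasted libraries (SD, n = 3; -0.06, adjusted p = 0.920). Summed over the 18 markers the level was 12973 to 15805 CPM in fed and 11579 to 13203 CPM in fasted libraries, which overlap. Trf and Ugt8a are part of that sum.

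Of 12 markers of oligodendrocyte precursors and newly formed oligodendrocytes 0 passed and 7 lay lower in every fasted library (11.5% of all genes), with a median of -0.23. Log2 fold changes were positive in 4 of the 12, up to 0.32. Sox10, a transcription factor of the whole lineage, was at 103, 111 and 116 CPM against 76.3, 54.6 and 60.4 CPM (-0.79, SE 0.19, edgeR adjusted p = 0.147). Olig1 was at 252, 257 and 248.6 CPM against 208, 192 and 175 CPM (-0.40, SE 0.13, adjusted p = 0.265). The summed level of the 12 was 1239 to 1380 CPM in fed and 994 to 1148 CPM in fasted libraries. In bulk tissue fewer cells of a type and less RNA per cell cannot be told apart, and the part of oligodendrocyte content in the results for Trf and Ugt8a was not tested.

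A list of genes that the glucocorticoid receptor is known to induce was followed. It was written with results of these libraries known, so neither its number of calls nor its direction is independent evidence. Of its 32 measured members 17 rose, 0 fell and 15 did not pass, where 0.253% of all genes rose and 0.0536% fell. The median log2 fold change was 1.11 against -0.00 over all genes. All 3 fasted libraries lay above all 3 fed ones in 24 members and below them in 1, where 10.9% and 11.5% of all genes did so. The 17 are Sgk1, Arl4d, Arrdc2, Plin4, Ddit4, Sult1a1, Hif3a, Klf15, Pdk4, Nfkbia, Cdkn1a, Map3k6, Errfi1, Zbtb16, Pnpla2, Gjb6 and Klf9. In 1 week replicates 1, 2 and 3 the members' median log2 difference from the fed mean was 0.81, 1.11 and 1.26. Without ad libitum replicates 1, 2 and 3 the number that passed was 4, 6 and 3, without 1 week replicates 1, 2 and 3 it was 18, 8 and 8, and without 1 day replicates 1, 2 and 3 it was 12, 19 and 16, while the median stayed between 0.97 and 1.23.

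Of the other classic members of that list, Fkbp5 and Tsc22d3 came close. Fkbp5 (ENSMUSG00000024222), a co-chaperone that lowers the receptor's affinity for hormone, was at 20.5, 23.1 and 22.4 CPM against 40.7, 89.4 and 117 CPM (log2 fold change 1.90, SE 0.31, edgeR adjusted p = 0.05004, just above the threshold). Its fasted libraries all lay above the fed ones and differed widely among themselves. Tsc22d3, the glucocorticoid-induced leucine zipper, was at 91.1, 91.9 and 99.2 CPM against 134, 187 and 153 CPM (0.75, SE 0.13, adjusted p = 0.0548). Per1, a clock gene with a glucocorticoid response element, was at 49.4, 55.9 and 58.4 CPM against 96.7, 107 and 110 CPM (0.94, SE 0.21, adjusted p = 0.122). The metallothionein genes Mt1 and Mt2 overlapped between groups (0.39 and 0.26, adjusted p = 0.741 and 0.899).

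The receptors themselves did not pass. Nr3c1 was at 106, 86.8 and 97.8 CPM against 81.7, 78.7 and 69.1 CPM (log2 fold change -0.34, SE 0.12, edgeR adjusted p = 0.335), with every fasted library below every fed one. Nr3c2 was at 44.4, 43.8 and 47.9 CPM against 44.1, 35.97 and 73.8 CPM (0.18, SE 0.22, adjusted p = 0.816), its highest value in replicate 3. Of 10 genes of receptors, chaperones and coactivators 0 passed and the median was -0.08. The chaperone gene Hsp90aa1 was at 810 ± 93.0 and 633 ± 30.5 CPM (-0.36, adjusted p = 0.383).

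**Figure D4:**
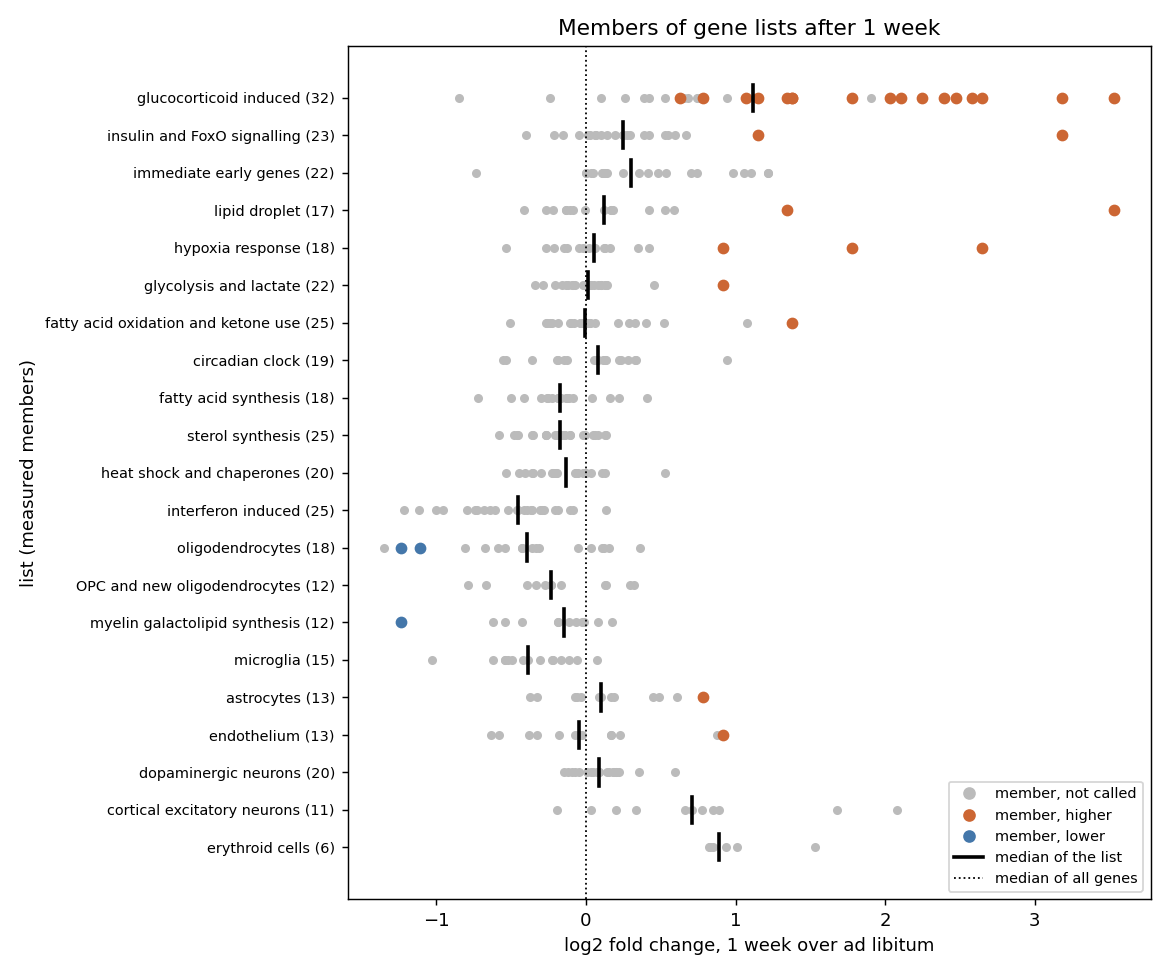
Log2 fold change of 1 week over ad libitum for each measured member of 21 gene lists (one point per gene, number of members in brackets), with genes called higher in orange, lower in blue and others in grey; black bars are list medians and the dotted line the median of all genes. The glucocorticoid list, written with results of these libraries known, has 17 orange points and a median of 1.11. The lists of glycolysis, fatty acid oxidation and dopaminergic neurons centre near 0.

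Few other members of the fuel and nutrient pathways passed. Those that rose in this paragraph, Klf15, Cdkn1a, Ddit4 and Pdk4, are also on the glucocorticoid list. Among 23 genes of the insulin and FoxO pathway Klf15 and Cdkn1a were the 2 that rose (0.253% of all genes rose), and 13 lay higher in every fasted library (10.9% of all genes), with a median of 0.25. The next by p were Txnip, which curbs glucose uptake, at 28.8, 28.2 and 33.5 CPM against 48.0, 40.7 and 55.5 CPM (log2 fold change 0.67, edgeR adjusted p = 0.0768), and Trib1, a pseudokinase, at 10.3, 12.1 and 12.2 CPM against 17.4, 17.6 and 17.3 CPM (0.60, adjusted p = 0.107). Of 20 genes of mTORC1 and its inhibitors Ddit4 alone rose, and the median was 0.01. Of 25 genes of fatty acid oxidation and ketone use Pdk4 alone rose, with a median of -0.01. Slc16a1, a transporter of lactate and ketone bodies, was at 62.1, 51.8 and 66.0 CPM against 50.1, 34.6 and 41.5 CPM (-0.51, adjusted p = 0.227).

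Of 17 lipid droplet genes Plin4 and Pnpla2, both also on the glucocorticoid list, rose, where 0.253% of all genes rose. The median was 0.12, with Dgat2 (0.53, edgeR adjusted p = 0.344) and Plin3 (0.42, adjusted p = 0.385) next. Of 18 genes of the hypoxia response Ddit4, Hif3a and Slc2a1 rose (0.253% of all genes rose). These genes are also on other lists here, and the median was 0.05. Vegfa, the best known target of that response, was at -0.27 (edgeR adjusted p = 0.526). Of 22 genes of glycolysis and lactate Slc2a1 alone rose (median 0.01). Of 19 genes of the amino acid response through Atf4 Slc7a5 alone rose (median 0.01). Of 12 brakes on growth signalling Errfi1 alone rose (median 0.36), and it is also on the glucocorticoid list.

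No member of the lists of lipid synthesis passed. All 3 fasted libraries lay below all 3 fed ones in 11 of 25 genes of sterol synthesis, with a median log2 fold change of -0.17, where 11.5% of all genes did so. Dhcr7, the last step to cholesterol, was at 35.96, 38.9 and 37.1 CPM against 28.3, 21.6 and 24.7 CPM (-0.58, SE 0.15, edgeR adjusted p = 0.168), and Msmo1 at 58.8, 62.3 and 63.9 CPM against 50.4, 44.7 and 39.4 CPM (-0.46, adjusted p = 0.179). Of 18 genes of fatty acid synthesis 5 lay below (11.5% of all genes; median -0.18), among them the elongases Elovl5 (-0.42, adjusted p = 0.148), Elovl6 (-0.50, adjusted p = 0.212) and Elovl7 (-0.72, adjusted p = 0.239).

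Interferon-induced genes and microglia markers had negative medians and no member past the test. Of 25 interferon-induced genes 12 lay lower in every fasted library, as did 11.5% of all genes, and 24 had a negative fold change, with a median of -0.46. Gbp3, a guanylate-binding protein, was at 3.15, 3.50 and 3.99 CPM against 2.02, 1.61 and 1.66 CPM (-1.0035, SE 0.19, edgeR adjusted p = 0.0672), and Isg15, a ubiquitin-like modifier, at 0.848, 1.24 and 0.867 CPM against 0.505, 0.382 and 0.370 CPM (-1.21, SE 0.32, adjusted p = 0.174). The interferon median was -0.58 without 1 week replicate 1 and -0.27 without 1 week replicate 2.

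Of 15 microglia markers 5 lay lower in every fasted library (11.5% of all genes) and the median was -0.39. The difference from the fed mean was -0.10, -0.76 and -0.27 in 1 week replicates 1, 2 and 3. Fcrls, a receptor gene of microglia, was at 11.1, 10.7 and 10.8 CPM against 6.63, 3.65 and 5.64 CPM (-1.03, SE 0.20, edgeR adjusted p = 0.0813) and Itgam at -0.62 (adjusted p = 0.320). Summed over the 15 markers, fed libraries had 402.0 to 448 CPM and fasted ones 252 to 401 CPM. Microglia express interferon-induced genes, and the part of microglial content in the interferon values was not tested.

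Clock, activity, stress and degradation genes gave no call. Of 19 clock genes 0 passed (median 0.08); after Per1 the smallest p belonged to Bhlhe40, a repressor of the clock, at 66.0, 66.5 and 69.2 CPM against 53.8, 49.2 and 53.7 CPM (-0.36, edgeR adjusted p = 0.213). Of 22 immediate early genes, switched on within minutes of neuronal firing, 0 passed, with a median of 0.30 that was -0.04 without 1 week replicate 3. That library had the highest sums of cortical neuron (1700 CPM), erythroid (1508 CPM) and fibroblast and meningeal markers (558 CPM). The part of these contents in the median was not tested. Fos was at 6.78, 5.47 and 4.96 CPM against 4.63, 13.3 and 19.0 CPM (1.10, SE 0.44, adjusted p = 0.403), and Dusp1, a phosphatase that is also glucocorticoid-induced, at 17.1, 16.9 and 15.4 CPM against 18.6, 26.7 and 37.2 CPM (0.74, adjusted p = 0.246). Of 20 heat shock and chaperone genes 6 lay lower in every fasted library (11.5% of all genes; median -0.13), including Hsph1 (-0.53, adjusted p = 0.307). Of 26 genes of autophagy and lysosomes, 15 NRF2 targets and 43 nuclear genes of oxidative phosphorylation 0 passed, with medians of -0.06, 0.04 and -0.05. The 13 mitochondrially encoded genes had a median of -0.63, which was -0.16, -1.40 and -0.41 in 1 week replicates 1, 2 and 3 against the fed mean.

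The genes of the nigral dopaminergic neuron did not pass either. Th, which catalyses the first step from tyrosine to dopamine, was at 160, 177 and 207 CPM in fed and 296, 118 and 211 CPM in fasted libraries (log2 fold change 0.20, SE 0.36, edgeR adjusted p = 0.882), and the dopamine transporter Slc6a3 at 350, 366 and 448 CPM against 526, 262 and 447 CPM (0.09, SE 0.28, adjusted p = 0.939). Replicate 1 was above and replicate 2 below the fed range for both, and both genes were present in all 6 libraries. Ddc, the next enzyme of the pathway, was at 136, 160 and 196 CPM against 258, 254 and 230 CPM (0.59, SE 0.39, adjusted p = 0.641). Of 20 dopaminergic markers 0 passed, with a median of 0.09 and summed levels of 1577 to 1995 CPM in fed and 1551 to 2432 CPM in fasted libraries.

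Of 20 genes linked to Parkinson's disease 0 passed and the median was -0.01. Of 19 neurotrophic factors and receptors 0 passed (median 0.04), and Bdnf overlapped between groups, at 14.7, 21.7 and 12.7 CPM against 20.6, 20.7 and 17.8 CPM (0.27, SE 0.19, adjusted p = 0.657).

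Several genes stopped just short of the threshold. After Fkbp5 these were Tmem98, a membrane protein of oligodendrocytes (log2 fold change -0.97, edgeR adjusted p = 0.05004), Fgfrl1, a decoy-like fibroblast growth factor receptor (-0.92, 0.05004), Mafk, a small Maf partner of NRF2 (1.06, 0.0517), Tma16 (1.32, 0.0520), the lysophospholipase Pnpla7 (0.71, 0.0521), the lipid flippase Atp10a (1.02, 0.0521) and the potassium channel gene Kcnk13 (-0.91, 0.0530). In each of them the fed and fasted libraries did not overlap. Mafk, for example, was at 12.9, 14.0 and 13.2 CPM against 21.99, 35.9 and 25.8 CPM, and Kcnk13 at 17.7, 18.0 and 20.6 CPM against 11.8, 8.48 and 9.66 CPM.

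The 3 fasted libraries were not alike in the size of these changes. Among the 52 risen genes replicate 1 had the lowest fasted level in 44 (84.6%), where it was lowest for 27.5% of all genes. Among the 11 fallen genes it had the highest fasted level in 9 (81.8%), against 31% of all genes. In replicates 1, 2 and 3 the risen genes had median log2 differences from the fed mean of 1.05, 1.26 and 1.32, and the fallen genes -0.88, -1.41 and -1.18. All 63 genes were chosen for their difference from the fed libraries, so this is a description of how the fasted libraries differ among themselves.

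**Figure D5:**
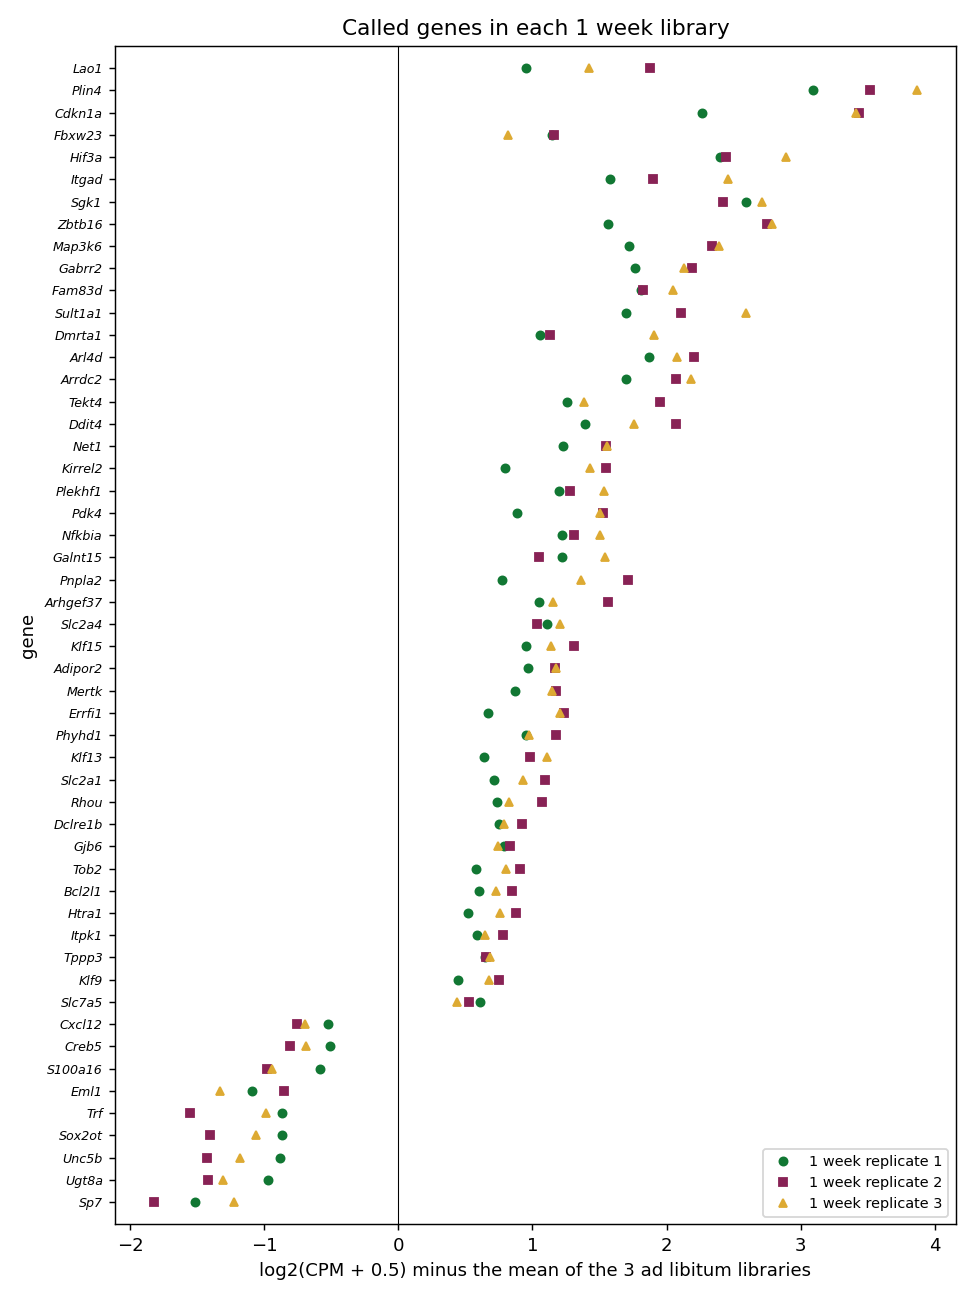
Difference of each 1 week library from the mean of the 3 ad libitum libraries, as log2(CPM + 0.5), for the 52 named genes called higher or lower that are reported here, ordered by fold change. Replicate 1 (green circles) lies nearest to 0 for most genes, and all points of a gene lie on the same side of 0.

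Libraries also differed in depth and in the levels of markers of neighbouring tissue and blood. Totals were 38516394 to 45693865 counts in fed and 36109995 to 54248856 in fasted libraries, and replicate 2 had the lowest estimated quality weight of the 3 fasted libraries, 0.507 against 1.42 and 0.972. Slc17a7, a glutamate transporter of cortical neurons, was at 33.2, 48.3 and 49.2 CPM in fed and 10.02, 41.9 and 501 CPM in fasted libraries. The 11 cortical markers summed to 433 to 621 CPM in fed libraries and to 480, 660 and 1700 CPM in fasted replicates 1, 2 and 3. The 6 erythroid markers, 0 of which passed, summed to 447 to 483 CPM in fed and 499, 624 and 1508 CPM in fasted replicates 1, 2 and 3. Ttr, an abundant RNA of choroid plexus cells, was at 4.07, 15.1 and 335 CPM in fed and 6.67, 35.5 and 4.58 CPM in fasted libraries. The part of these differences in the results was not tested.

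The 1 week group was set against the 1 day group to ask where the longer regimen differs from 1 fast. By edgeR 0 genes passed (0%), and the lowest adjusted p was 0.853. Before adjustment, p was under 0.05 in 1071 genes, near the chance number of 1027. DESeq2 called 3, limma voom 0, and edgeR 3 without 1 week replicate 1. The largest differences among the named genes, given as values, were in Dmrta1 (log2 difference 1.42, SE 0.32), Zbtb16 (1.34, SE 0.34), Fkbp5 (1.18, SE 0.31), Cdkn1a (1.08, SE 0.38) and Hif3a (1.06, SE 0.29). All but Fkbp5, which came close, were called for high 1 week levels against ad libitum. That choice pushes their differences from the 1 day group upward. All 52 risen genes had a higher mean in 1 week than in 1 day libraries, with a median log2 difference of 0.40. Side by side, mean levels in ad libitum, 1 day and 1 week libraries were 28.5 ± 4.64, 62.5 ± 20.01 and 158 ± 64.1 CPM for Zbtb16 and 7.39 ± 1.77, 22.2 ± 8.67 and 46.4 ± 9.28 CPM for Hif3a. They were 47.5 ± 5.99, 216 ± 55.4 and 285 ± 28.0 CPM for Sgk1 and 946 ± 94.0, 441 ± 26.5 and 438 ± 104 CPM for Trf (SD, n = 3 each). The difference for Sgk1 was 0.40 (SE 0.18) and that for Trf -0.01 (SE 0.17) on the log2 scale. Both fasting groups share their ad libitum libraries, so the values are given without a test of overlap between them.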

How the data were processed

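The values the authors deposited are estimated counts, whole numbers for each gene and library with no scaling to depth. Per the submitters' processing notes they came from Salmon, with DESeq2 1.40.2 and the builds GRCm39 and mm39 also named. The sources used here name no Salmon version, annotation release or row filter, and the lowest row mean was 9.89. Per the labels' protocols, polyA RNA and a directional kit were used. Salmon splits reads between near-identical transcripts, so close paralogs are uncertain.

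Counts of all 9 libraries were fitted with edgeR 4.0.16 in R 4.3.3: TMM factors, filterByExpr (minimum count 10, minimum total 15, which removed 56 rows), robust quasi-likelihood F test, two-sided, Benjamini-Hochberg adjustment over all genes tested, threshold 0.05. Levels are CPM on TMM-scaled library sizes, so depth sets their counting error; SEs come from the F statistics. Alternatives were DESeq2 1.42.0, RLE factors, 2 other filters, the 6 libraries alone, limma 3.58.1 voom with quality weights, a replicate block, and leaving out libraries. No pair of the 6 libraries matched within sampling noise (lowest chi-square per gene 38.9). On simulated data with 200 changed genes, the share of genes recovered by edgeR, DESeq2 and voom rose with fold size. The sign was checked only for genes of the largest fold size, where it was right.

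Genes named are all called genes with names, grouped by role, with library values for up to 15 risen genes of smallest p, 10 of largest change and 12 fallen, and for further called genes as examples of a role; up to 4 members of each list described; up to 8 genes that just missed the threshold; and a fixed set (Th, Slc6a3, Ddc, Fkbp5, Sgk1, Nr3c1, Nr3c2, Per1, Fos, Bdnf, Mbp, Pdk4, Tsc22d3, Mt1, Mt2, Slc17a7, Ttr). Gjb1, Ntn1, Cxcr4, Vegfa and Tfrc are outside it and were chosen after their values were seen, as well known members of their lists. Some genes that the rule gives are not reported here. The comparison, members and gene lists were chosen with earlier results of these data known. Promoter windows are RefSeq's for GRCm38.p6, matched by symbol; no coordinates of the counted genes were used.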

Additional observations from a re-analysis of the deposited data

How the results depend on the processing

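The total of 63 called genes (52 higher, 11 lower) was 464 (296, 168) with DESeq2, 155 (124, 31) on the ad libitum and 1 week libraries alone, 296 (182, 114) with limma voom and quality weights, and 32 (26, 6) with a replicate block. Without both libraries that stood apart, replicate 2 of the 1 day and of the 1 week group, 70 genes passed, 39 of the 63 among them, and 19 were lower. RLE factors, no filter and a filter of 1 CPM in at least 6 libraries gave 69, 63 and 53. All 63 calls were also DESeq2 and voom calls, and 26 were calls under the block. Leaving out 1 library each gave 8 to 121 genes in all, 8 to 84 higher and 0 to 37 lower; those fits have fewer samples, and otherwise the cause was not tested. Between 1 week and 1 day DESeq2 called 3 genes and the fits that left out 1 library 0 to 3. The ad libitum and 1 week libraries share only a number: deviations of same-numbered ones correlated at -0.017, -0.092 and 0.275 over 14395 genes (1 day and 1 week: 0.138, 0.427 and 0.077), and 1 of the 3 pairs correlated best with its own number. Among the genes followed, signs turned only in uncalled ones. Leaving out 1 library moved the log2 fold change of Th from -0.14 to 0.50, Slc6a3 from -0.13 to 0.34, Nr3c2 from -0.18 to 0.39, Slc17a7 from -0.75 to 2.64, Ttr from -4.38 to 0.70 and Mbp from -0.14 to 0.067; Mbp was at 0.045 without both libraries that stood apart. Over the gene values, 1585 alternatives kept direction and side of the threshold, 282 lost and 92 gained the threshold and 8 turned; of list medians 640 moved by less than their spread and 40 by more. With 3 libraries a group, small changes are mostly not detectable.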
